A study of Mus musculus with 6 samples.

Results

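Genes of the epidermis and of the keratin family were followed in RNA from the limb bones of newborn mice. The set was given as 36 gene symbols, and its members were found by matching these symbols to the gene names of the deposited count table. In that table of 43346 genes, 34 of the 36 symbols had a row, while Perp2 and Col17a2 matched none. The bones came from the hindlimbs and forearms of C57BL/6 pups aged 1 day and were freed of neighbouring soft tissue before lysis. RNA-seq libraries were made for 3 wild type samples and 3 samples labelled Hdac3 CKO, which the series describes as a conditional knockout with Prx1. The labels do not give the alleles, whether the wild type pups carried Cre, or whether each library is a separate animal, so p-values reflect only how far these libraries spread, and part of that spread may be technical.

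Epidermis is a stratified epithelium in which basal cells divide, move upwards and end as dead cornified cells. Keratins are the filament proteins of epithelial cells and assemble from a type I and a type II partner, Krt5 with Krt14 in basal cells, Krt1 with Krt10 in the layers above, and Krt8 with Krt18 in simple epithelia. Desmosomes tie these filaments to neighbouring cells, and the cornified envelope is a shell of crosslinked proteins that replaces the membrane in the outermost layer. Epidermis derives from the ectoderm, whereas the Prx1 enhancer is commonly used to express Cre in limb bud mesenchyme, from which bone and cartilage arise.

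Total counts per library ranged from 43389262 to 50927978, and values per library are given below as TMM-scaled counts relative to the library total (CPM). Hdac3, the targeted gene, stood at 48.4, 47.4 and 50.3 CPM in wild type, against 31.8, 29.4 and 28.3 CPM in Hdac3 CKO, which matched the labels. A gene rose or fell where its adjusted p was under 0.05 by the quasi-likelihood test of edgeR, Benjamini-Hochberg adjusted over the 20210 genes that passed the filter on low counts. Of the 34 genes, 25 passed that filter and were tested, and the 9 others held 8 to 77 counts over all 6 libraries. Levels of different genes were compared as the deposited reads scaled to gene length and library total (RPKM), in which Col1a1, the main bone collagen, averaged 4276. The highest mean among the 34 genes was that of Krt8 at 2.62 RPKM, and 24 of them averaged under 1 RPKM. The keratin genes lie in 2 clusters (mm10, as deposited). The type II genes Krt1, Krt5, Krt6a, Krt7, Krt8 and Krt79 lie on chromosome 15 between 101411043 and 102004342, and the type I genes Krt10, Krt14, Krt15, Krt16, Krt17 and Krt19 on chromosome 11 between 99385254 and 100261029. Krt18 is the type I exception, at 102028216 to 102032026 on chromosome 15 beside its partner Krt8. In all 6 libraries more genes had 4 counts than 3, and more had 6 than 5, so small counts may not all be separate fragments.

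No tested gene of the set passed the threshold, while for 11 of the 25 tested genes the highest library stood at least 5 times above the lowest. Of the 25 tested genes, 0 rose and 0 fell in Hdac3 CKO, where 0.703% of all tested genes rose and 0.475% fell. The smallest adjusted p was 0.117, that of Trp63. At an unadjusted p under 0.05 there were 6 of the 25, or 24.0%, beside 15.0% of all tested genes. Over the alternatives this count ranged from 2 of 26 without Hdac3 CKO replicate 2 to 8 of 25 without wild type replicate 1. It was also 8 of 25 without robust moderation, 7 of 25 in DESeq2, and 3 of 25 with library totals as the scaling or with limma. The share of all tested genes was not counted in these fits. DESeq2 called 2 genes of the set higher, Krt15 and Trp63, and 0 lower, where it called 2.64% of the 18236 genes with an adjusted p higher and 2.12% lower. Of the 25, Dsc3, Krt79 and Pkp3 had no adjusted p in DESeq2. The median log2 fold change of the 25 was 0.339, beside 0.001 over all tested genes, and 18 of the 25 stood above 0. In 6 of the 25 the genotypes did not overlap. Hdac3 CKO was higher in 5 of these, or 20.0%, beside 11.5% of all tested genes, and lower in 1, or 4.0%, beside 10.9%. Overlap was read after TMM scaling, with factors of 1.046 to 1.089 in wild type and 0.8804 to 0.9814 in Hdac3 CKO. Relative to library totals alone, the genotypes of Krt18, Pkp3 and Sfn overlapped. Most genes of the set peaked in wild type replicate 1 or Hdac3 CKO replicate 2. Without these 2 libraries, 0 of 24 tested genes of the set rose and 0 fell. That fit called few genes at all, 0.089% of 20229 higher and 0.0297% lower.

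Within the set, the library in which a gene was highest differed between roles. Wild type replicate 1 held the highest value of 14 of the 34 genes and Hdac3 CKO replicate 2 that of 12. Over the tested genes these numbers were 9 and 10 of 25, while the same libraries held the highest value of 18.0% and 14.8% of all tested genes. All 4 genes of the basal layer peaked in Hdac3 CKO replicate 2. Of the 9 cornified envelope and secreted genes, 8 peaked in wild type replicate 1, among them Flg, Ivl and Cnfn, which were not tested. In a further list of cornified envelope and barrier genes, 10 of the 22 genes with a count peaked in wild type replicate 1. Its tested genes peaked elsewhere, Tgm1, Cdsn and Ly6d in Hdac3 CKO replicate 2 and Tgm3 and Spink5 in Hdac3 CKO replicate 3. Aloxe3 peaked in wild type replicate 2 and Asprv1 in wild type replicate 3. Wild type replicate 3 held the lowest value of 11 of the 25 tested genes, beside 9.39% of all tested genes. These counts describe 6 libraries and were not tested.

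**Figure D1:**
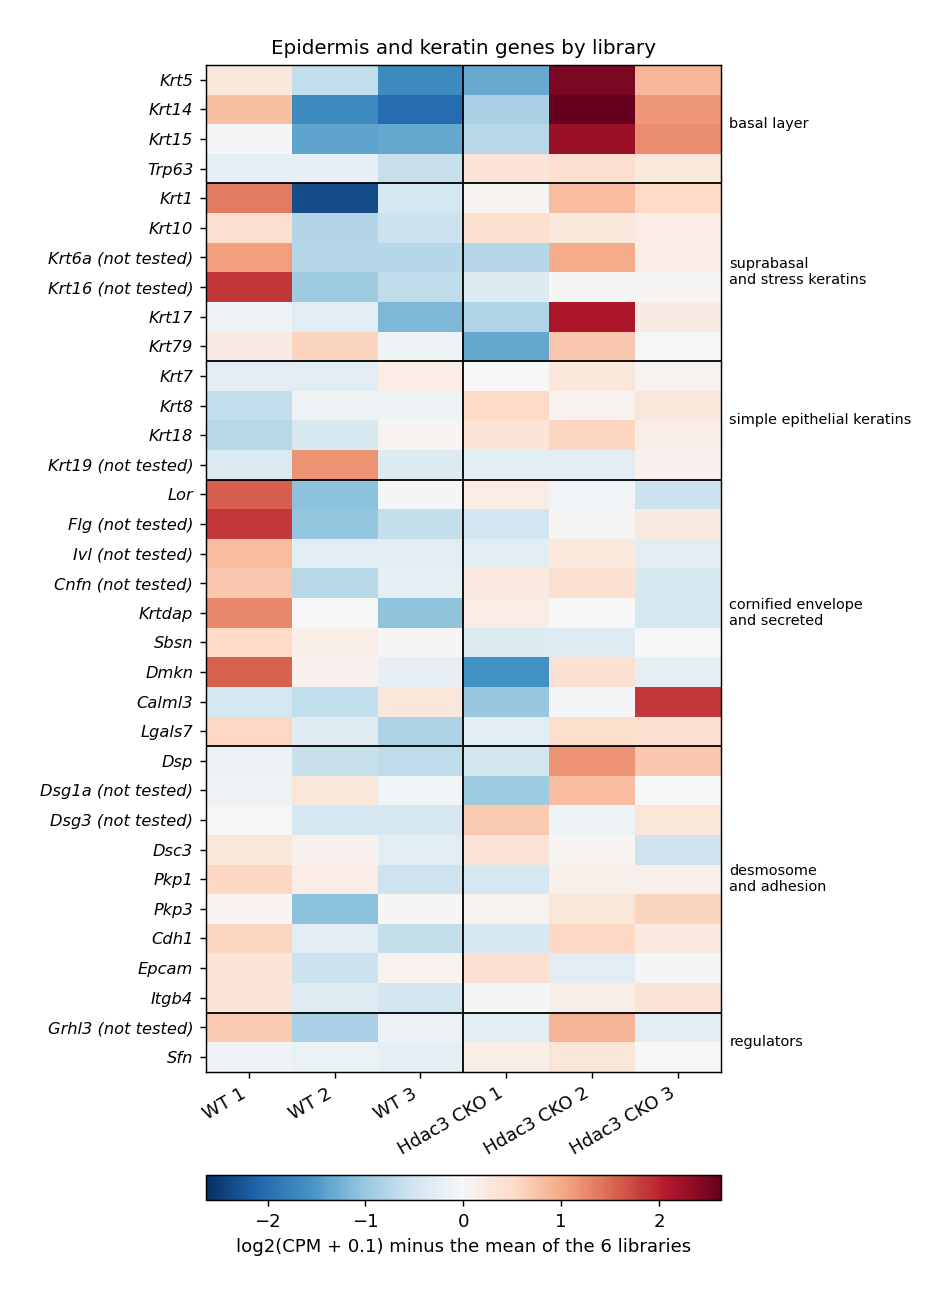
Levels of the 34 genes (rows, grouped by role) in each library (columns), as log2(CPM + 0.1) minus the gene's mean over the 6 libraries. Krt5, Krt14, Krt15 and Krt17 are darkest red in Hdac3 CKO replicate 2, and Lor, Flg, Krt16 and Dmkn in wild type replicate 1.

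The basal keratins Krt5, Krt14 and Krt15 differed by 20.1 to 35.9 times between the highest and the lowest library. Krt5, the type II keratin of basal cells, stood at 3.16, 1.59 and 0.732 CPM in wild type, against 0.969, 14.7 and 4.79 CPM in Hdac3 CKO. Hdac3 CKO replicate 2 was 20.1 times as high as the lowest library, while Hdac3 CKO replicate 1 lay below 2 of the wild type libraries. The log2 fold change of Krt5 was 1.90 ± 0.97 (SE, 3 libraries per genotype), with an adjusted p of 0.418 by edgeR's quasi-likelihood test. Krt14, its type I partner, stood at 2.16, 0.310 and 0.224 CPM in wild type, against 0.630, 8.04 and 2.79 CPM in Hdac3 CKO. Its libraries stood in nearly the same order as those of Krt5, the genotypes overlapped, and the log2 fold change was 2.07 ± 1.08. Without Hdac3 CKO replicate 2 the value was 0.91 for Krt14 and 0.65 for Krt5. Krt5 and Krt14 are the defining markers of basal keratinocytes, and they were detected in every library, on 36 to 627 and 11 to 342 counts.

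Krt15, a second type I keratin of basal cells, had 24, 6 and 6 counts in wild type and 10, 112 and 53 in Hdac3 CKO. As with Krt5 and Krt14, Hdac3 CKO replicates 2 and 3 held the most counts and Hdac3 CKO replicate 1 lay within the wild type range. For Krt15 the log2 fold change was 2.55 ± 0.80 and its adjusted p was 0.188 by edgeR's quasi-likelihood test. The adjusted p of Krt15 ranged from 0.0174 in DESeq2 to 0.483 over the alternatives, and it was 0.0491 in edgeR without Hdac3 CKO replicate 1. Krt17, a keratin of hair follicles and of wounded or stressed epidermis, showed the same peak, with 22, 18 and 7 counts in wild type and 9, 99 and 23 in Hdac3 CKO.

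**Figure D2:**
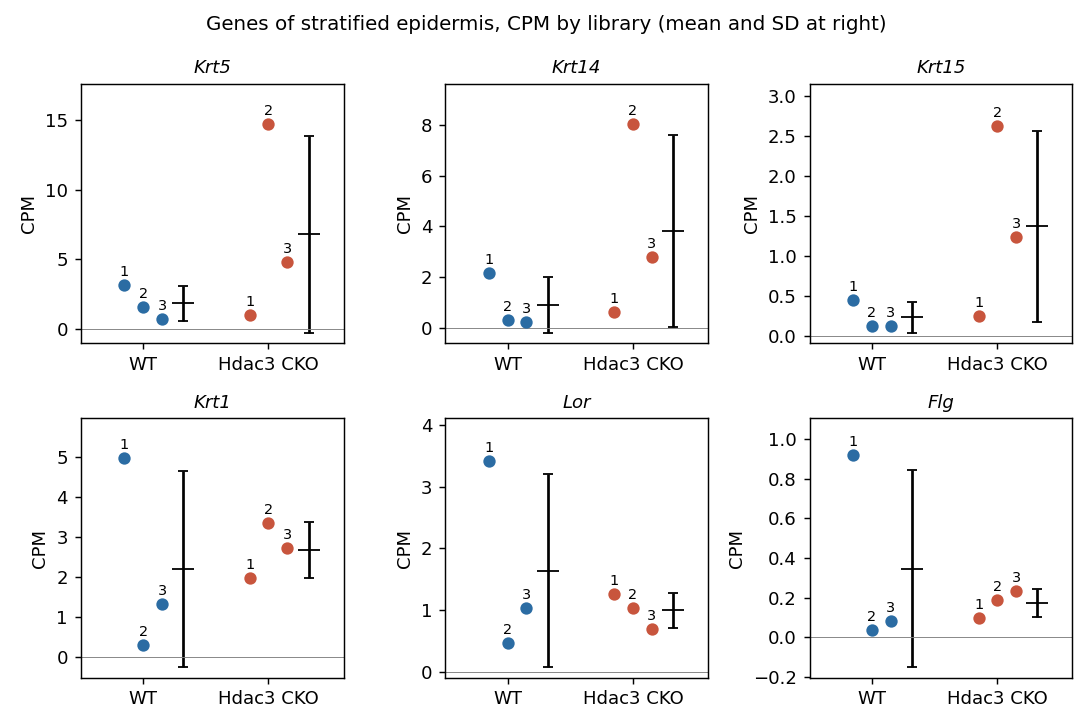
CPM of 6 genes of stratified epidermis in each library (points, numbered by replicate), with the mean and SD of each genotype at the right of its points. Hdac3 CKO replicate 2 stands apart for Krt5, Krt14 and Krt15, and wild type replicate 1 is highest for Krt1, Lor and Flg.

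Trp63, which encodes p63, the transcription factor that basal keratinocytes depend on, varied far less than the basal keratins. Its levels were 4.42, 4.50 and 3.40 CPM in wild type, against 6.66, 7.12 and 6.39 CPM in Hdac3 CKO. All 3 Hdac3 CKO libraries lay above all 3 wild type libraries, and the highest was 2.1 times the lowest, beside 35.9 times for Krt14. The mean was 4.10 ± 0.613 CPM in wild type against 6.72 ± 0.367 CPM in Hdac3 CKO (SD, n = 3). Its log2 fold change was 0.71 ± 0.19 with an adjusted p of 0.117 by edgeR's quasi-likelihood test, and over the alternatives the adjusted p ranged from 0.0177 in DESeq2 to 0.386. A two-sided exact permutation test of the 6 values of Trp63 gave p = 0.1, below which 3 against 3 libraries cannot go.

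The keratin pair of the upper layers was highest in wild type replicate 1. Krt1, the type II keratin of suprabasal cells, stood at 4.98, 0.291 and 1.32 CPM in wild type, against 1.96, 3.34 and 2.72 CPM in Hdac3 CKO. The wild type libraries spanned a 17.1-fold range that enclosed all 3 Hdac3 CKO libraries, and the log2 fold change was 0.28 ± 0.73. Krt10, its partner, stood at 5.64, 2.38 and 2.75 CPM in wild type, against 5.57, 5.08 and 4.77 CPM in Hdac3 CKO, with a log2 fold change of 0.51 ± 0.31. Wild type replicates 2 and 3 were the lowest for Krt10, and the adjusted p was 0.46 with all libraries and 0.16 without wild type replicate 1, both by edgeR's quasi-likelihood test. Krt79, a keratin of the hair follicle opening, had 2 to 24 counts per library and a log2 fold change of -0.30 ± 0.60.

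Partner keratins did not keep a fixed ratio. The RPKM of Krt5 was 1.17, 4.11 and 2.63 times that of Krt14 in wild type and 1.24, 1.47 and 1.38 times in Hdac3 CKO, where the high ratios in wild type replicates 2 and 3 rest on 16 and 11 counts of Krt14. Between the layers the spread was wider. Krt5 was 0.708, 6.10 and 0.618 times as high as Krt1 in wild type and 0.551, 4.93 and 1.97 times as high in Hdac3 CKO, on the RPKM scale. The ratio of 6.10 in wild type replicate 2 rests on 15 counts of Krt1. Krt1 stood at 0.757, 0.104 and 0.412 times the RPKM of its partner Krt10 in wild type and at 0.302, 0.563 and 0.489 times in Hdac3 CKO, lowest in that same library. Krt5 thus exceeded Krt1 in 3 libraries and lay below it in the 3 others.

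Krt6a and Krt16, partner keratins of the follicle and of hyperproliferative epidermis, were too low to test. Krt16 had 32, 0 and 1 counts in wild type and 2, 4 and 4 in Hdac3 CKO, and Krt6a had 14, 0 and 0 in wild type and 0, 10 and 4 in Hdac3 CKO. A library with 0 counts allows up to 3 counts, which is 0.0564 to 0.0726 CPM in these libraries. Keratins of 1 type are similar in sequence, and how reads with several matches were treated is not given in the sources used here, so the counts of Krt6a, Krt14, Krt16 and Krt17 are uncertain where copies share reads.

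Genes of the set for the cornified envelope and the secretions of the upper layers mostly peaked in wild type replicate 1. To show what their start sites hold, the RefSeq windows from 250 bases before to 50 bases after the start site (build GRCm38.p6) are printed 5′ to 3′ on the gene's strand for Lor (chr3:92083093-92083392, minus strand), Flg (chr3:93273296-93273595, plus strand) and Krtdap (chr7:30787655-30787954, plus strand), which peaked there. Beside them stand Sbsn (chr7:30751221-30751520, plus strand), the gene of this role whose genotypes did not overlap, and Krt5 (chr15:101712856-101713155, minus strand) for the basal layer. Capitals mark TGANTCA, a pattern that covers the AP-1 recognition sequences TGAGTCA and TGACTCA, and TATAAA, the letters of a TATA box. The pattern also takes in TGAATCA, which is what stands in Flg and in the first match of Sbsn.
Lor: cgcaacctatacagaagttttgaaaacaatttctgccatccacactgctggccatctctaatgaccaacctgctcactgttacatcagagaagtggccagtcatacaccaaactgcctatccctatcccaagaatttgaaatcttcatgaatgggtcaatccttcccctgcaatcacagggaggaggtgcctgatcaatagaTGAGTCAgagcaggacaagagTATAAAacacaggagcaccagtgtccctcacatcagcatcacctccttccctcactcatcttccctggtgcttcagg
Flg: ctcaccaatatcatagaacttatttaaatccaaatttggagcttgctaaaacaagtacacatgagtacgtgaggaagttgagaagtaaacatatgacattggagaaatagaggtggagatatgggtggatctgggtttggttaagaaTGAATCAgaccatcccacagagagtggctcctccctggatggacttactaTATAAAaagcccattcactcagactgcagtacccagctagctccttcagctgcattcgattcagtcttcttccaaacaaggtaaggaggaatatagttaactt
Krtdap: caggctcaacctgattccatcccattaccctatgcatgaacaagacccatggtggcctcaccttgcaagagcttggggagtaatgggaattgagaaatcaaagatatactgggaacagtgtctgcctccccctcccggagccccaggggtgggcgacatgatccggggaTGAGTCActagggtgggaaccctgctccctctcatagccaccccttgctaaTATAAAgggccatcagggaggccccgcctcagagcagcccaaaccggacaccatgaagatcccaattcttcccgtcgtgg
Sbsn: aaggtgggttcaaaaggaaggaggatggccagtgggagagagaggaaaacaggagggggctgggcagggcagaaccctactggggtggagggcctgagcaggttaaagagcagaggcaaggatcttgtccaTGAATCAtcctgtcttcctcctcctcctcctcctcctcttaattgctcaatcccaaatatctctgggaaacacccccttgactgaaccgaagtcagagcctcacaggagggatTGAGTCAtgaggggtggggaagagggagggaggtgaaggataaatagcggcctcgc
Krt5: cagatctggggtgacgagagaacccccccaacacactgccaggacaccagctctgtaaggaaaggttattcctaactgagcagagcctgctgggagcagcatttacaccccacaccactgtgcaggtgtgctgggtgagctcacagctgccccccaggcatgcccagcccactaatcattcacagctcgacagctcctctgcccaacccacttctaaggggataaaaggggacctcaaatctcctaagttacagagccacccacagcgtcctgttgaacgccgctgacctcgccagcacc

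RefSeq windows matched 19 of the 34 genes, with 21 start sites. TGANTCA, read on both strands, was found in the windows of 6 genes, Dmkn, Flg, Ivl, Krtdap, Lor and Sbsn, all of the cornified envelope and secreted group. Counted by window it was present in 8 of the 21, several of them Dmkn's, beside 7.81% of all 32851 windows of the same length. Cnfn and Lgals7 of the same group had windows without it. Windows were unevenly spread over the roles, and in the basal layer only Krt5 and Krt14 had one. TATAAA, read on both strands, was found for Flg, Ivl, Krt10, Krt8, Krtdap and Lor, and in 13.6% of all windows. In Lor, TGANTCA began 48 bases and TATAAA 27 bases before the start site. The TATAAA matches of Krt8 began 3 and 1 bases before its start site and so lie across it, not at the place of a TATA box. AACCGGTT, bound by Grainyhead factors, and CATG repeated after 6 bases, a pattern of p53 family sites, were found in the window of 0 of the 19 genes, and in 0.146% and 0.712% of all windows, both strands read. A match describes these letters and is no evidence of binding.

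Lor, which encodes loricrin, the main protein of the cornified envelope, stood at 3.42, 0.465 and 1.04 CPM in wild type, against 1.26, 1.03 and 0.697 CPM in Hdac3 CKO. Wild type replicate 1 lay above all others, and the other 5 libraries overlapped. For Lor the log2 fold change was -0.73 ± 0.62, and it was 0.41 without wild type replicate 1. Flg, which encodes the filament-bundling protein filaggrin, had 49, 2 and 4 counts in wild type and 4, 8 and 10 in Hdac3 CKO and was not tested. The deposited identifier of Flg is not in GENCODE M21 and its span holds other deposited genes, so its gene model was not checked. Krtdap, a secreted protein of differentiating keratinocytes, stood at 1.43, 0.543 and 0.203 CPM in wild type, against 0.630, 0.540 and 0.372 CPM in Hdac3 CKO. Its log2 fold change of -0.51 ± 0.60 also changed sign without wild type replicate 1, to 0.45. Dmkn, whose gene lies next to Krtdap on chromosome 7, had 65, 20 and 14 counts in wild type and 2, 21 and 12 in Hdac3 CKO, at -1.20 ± 0.72. Ivl, which encodes the envelope precursor involucrin, had 6 counts in wild type replicate 1, 2 in Hdac3 CKO replicate 2 and 0 in the other 4 libraries. Cnfn, another envelope protein, had 0 to 9 counts per library.

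Sbsn, a secreted protein of the suprabasal layers, was the only tested gene of the set that lay lower in every Hdac3 CKO library. Its levels were 8.59, 6.71 and 6.10 CPM in wild type, against 4.60, 4.65 and 5.86 CPM in Hdac3 CKO, with means of 7.13 ± 1.30 and 5.04 ± 0.712 CPM (SD, n = 3). Its log2 fold change was -0.50 ± 0.20, with an adjusted p of 0.285 by edgeR's quasi-likelihood test. The deposited gene runs from 30734739 to 30756134 on chromosome 7 (mm10), whereas GENCODE M21 starts Sbsn at 30751471. The deposited span overlaps C630016N16Rik, which had 1514 counts in all, beside 1743 for Sbsn. C630016N16Rik stood at 6.05, 5.49 and 5.57 CPM in wild type, against 4.41, 5.31 and 5.28 CPM in Hdac3 CKO. Its genotypes did not overlap either, at a log2 fold change of -0.19. The span also overlaps Gapdhs (673 counts), whose genotypes overlapped at -0.18, and Gm26935 (200 counts), whose genotypes did not, at -0.43. In GENCODE M21 a neighbouring transcript shares 279 exon bases with Sbsn on the same strand, and what part of the counts is Sbsn's own was not tested.

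Lgals7, which encodes galectin-7 of stratified epithelia, ranged from 0.875 to 2.39 CPM, with overlapping genotypes and a log2 fold change of 0.34 ± 0.38. Calml3, a calmodulin-like protein of epithelial cells, was the exception to the peak in wild type replicate 1. Its levels were 1.45, 1.26 and 2.52 CPM in wild type, against 0.969, 1.95 and 7.70 CPM in Hdac3 CKO. Replicate 3 was highest in each genotype, as it was for the cartilage collagen Col2a1, at 5212 CPM in wild type replicate 3 and 11502 CPM in Hdac3 CKO replicate 3, where the other libraries ranged from 453 to 896 CPM. The part of cartilage content in the level of Calml3 was not tested. Its log2 fold change was 1.03 ± 0.66, and -0.25 without Hdac3 CKO replicate 3.

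After TMM scaling, the simple epithelial pair Krt8 and Krt18 lay higher in every Hdac3 CKO library without passing the test. Krt8 stood at 3.66, 5.27 and 5.33 CPM in wild type, against 8.45, 6.18 and 7.11 CPM in Hdac3 CKO. Every Hdac3 CKO library lay above every wild type library, with means of 4.76 ± 0.946 and 7.25 ± 1.14 CPM (SD, n = 3). The log2 fold change of Krt8 was 0.61 ± 0.21, with an adjusted p of 0.226 by edgeR's quasi-likelihood test. Krt18, its partner, stood at 1.6, 2.0 and 2.83 CPM in wild type, against 3.46, 4.04 and 3.07 CPM in Hdac3 CKO. No library of Krt18 overlapped between the genotypes either, at 0.72 ± 0.26 and an adjusted p of 0.237 in the same test. Relative to library totals alone, wild type replicate 3 (139 counts) lay above Hdac3 CKO replicate 3 (132 counts) for Krt18. Krt8 was 1.19 to 2.05 times as high as Krt18 on the RPKM scale over the 6 libraries. Wild type replicate 1, where most cornified envelope and secreted genes of the set peaked, was the lowest library for Krt7, Krt8 and Krt18.

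Krt7, another type II keratin of simple epithelia, ranged from 2.59 to 3.99 CPM, and its log2 fold change was 0.25 ± 0.23. Krt19, the smallest type I keratin, had 16 counts in wild type replicate 2 and 2 to 4 in each other library.

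**Figure D3:**
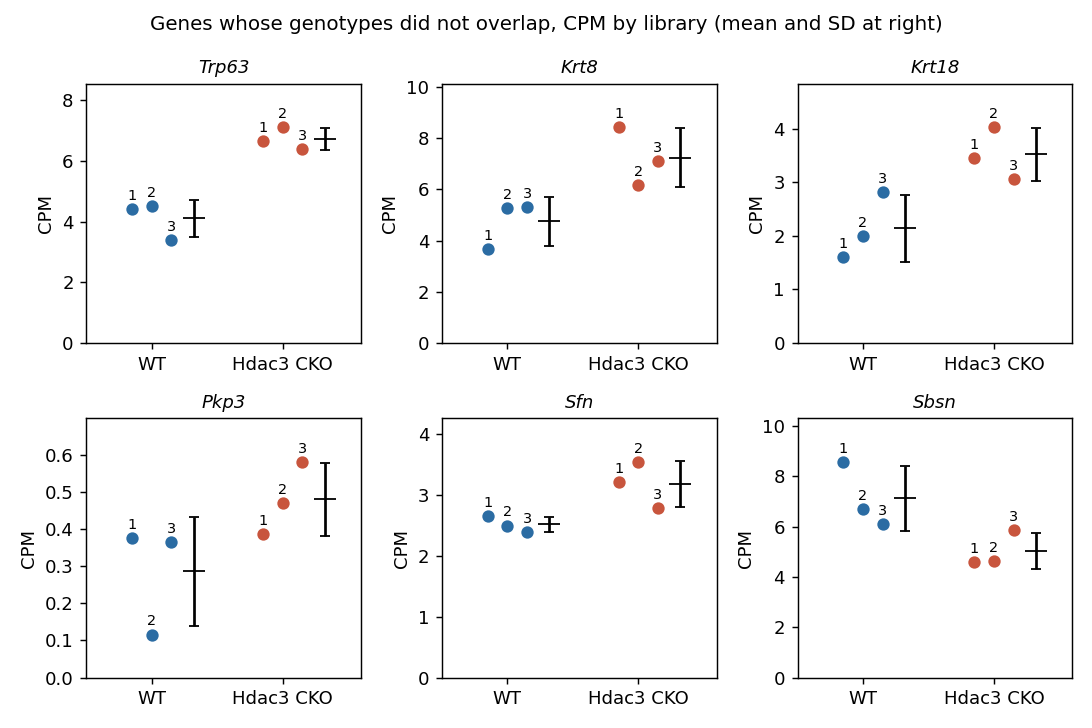
CPM of the 6 tested genes whose genotypes did not overlap, by library (points, numbered by replicate), with the mean and SD of each genotype at the right of its points. Trp63, Krt8, Krt18, Pkp3 and Sfn lie higher and Sbsn lies lower in all 3 Hdac3 CKO libraries, and the adjusted p of each was 0.117 or more by edgeR's quasi-likelihood test.

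Among the desmosome genes, Dsp followed the basal keratins in part. Dsp, which encodes desmoplakin, the link from desmosomes to keratin filaments, stood at 1.26, 0.911 and 0.854 CPM in wild type, against 0.993, 3.36 and 2.37 CPM in Hdac3 CKO. Hdac3 CKO replicates 2 and 3 lay above the others and replicate 1 lay within the wild type range. For Dsp the log2 fold change was 1.15 ± 0.41, with an adjusted p of 0.235 by edgeR's quasi-likelihood test and a range of 0.0554 to 0.516 over the alternatives. Pkp3, a desmosomal plaque protein, had 20, 6 and 18 counts in wild type and 16, 20 and 25 in Hdac3 CKO, and after scaling its genotypes did not overlap, at 0.74 ± 0.47. Pkp1, the plaque protein of the upper layers, ranged from 0.997 to 2.22 CPM and stood at -0.18 ± 0.34.

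The desmosomal cadherins had few counts. Dsc3 had 8 to 22 counts per library and a log2 fold change of -0.09 ± 0.45. Dsg1a had 0 to 10 counts and Dsg3 0 to 5, and neither was tested. Both are cadherins of stratified epithelia, and each had 0 counts in at least 1 library.

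Itgb4, the integrin of hemidesmosomes, which anchor basal cells to the basement membrane, had the highest mean CPM of the set in each genotype. Its levels were 14.5, 9.0 and 8.1 CPM in wild type, against 11.1, 12.9 and 14.6 CPM in Hdac3 CKO. Its libraries differed by at most 1.80-fold and the genotypes overlapped, at 0.29 ± 0.23. Cdh1, which encodes E-cadherin, ranged from 0.325 to 0.864 CPM and stood at 0.23 ± 0.45. Epcam, an epithelial adhesion molecule that Langerhans cells also carry, ranged from 0.330 to 0.751 CPM and stood at 0.06 ± 0.40. Neither was near the test's threshold, with adjusted p values of 0.841 and 0.96 by edgeR's quasi-likelihood test.

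Of the regulators, Sfn, which encodes the keratinocyte protein 14-3-3 sigma, differed by at most 1.48-fold between libraries. Its levels were 2.65, 2.5 and 2.4 CPM in wild type, against 3.22, 3.55 and 2.79 CPM in Hdac3 CKO. After TMM scaling, though not relative to library totals alone, the genotypes of Sfn did not overlap. Its log2 fold change was 0.34 ± 0.21 with an adjusted p of 0.467 by edgeR's quasi-likelihood test. Grhl3, a transcription factor of the epidermal barrier, had 10, 0 and 3 counts in wild type and 2, 10 and 2 in Hdac3 CKO and was not tested.

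**Figure D4:**
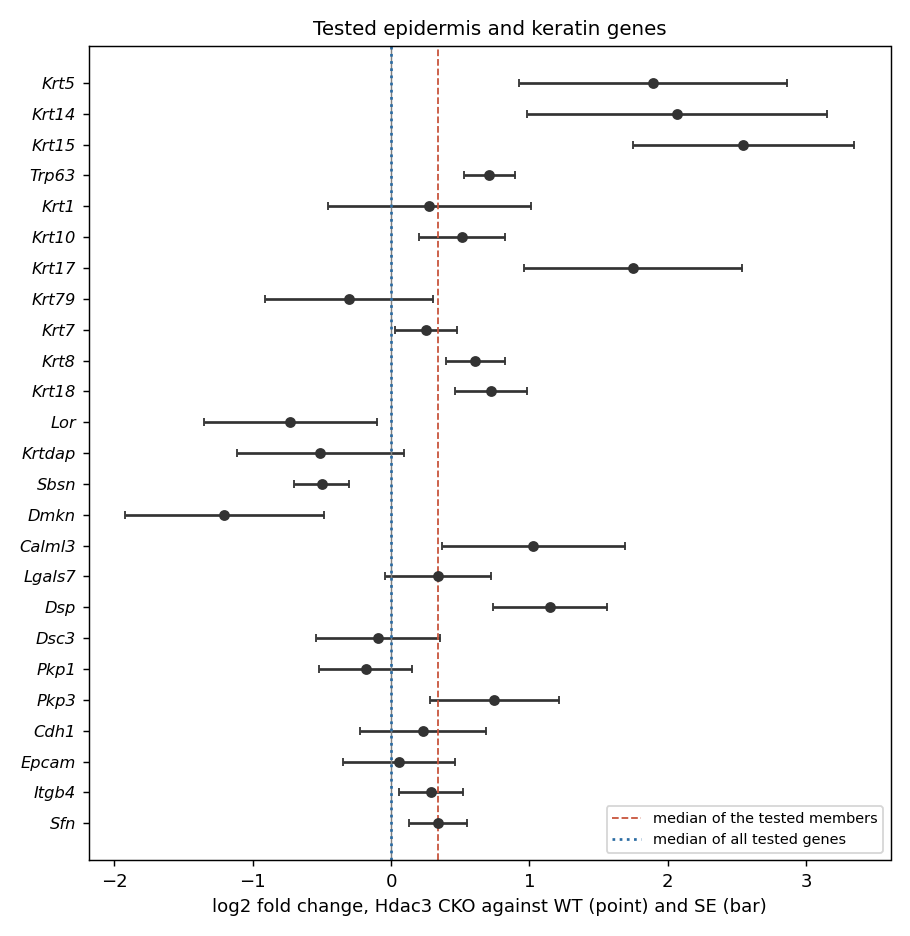
Log2 fold change of Hdac3 CKO against wild type (point) with its standard error (bar) for the 25 tested genes, with the median of these genes (dashed line, 0.339) and of all tested genes (dotted line, 0.001). The widest bars belong to Krt5 and Krt14, and none of the 25 passed an adjusted p of 0.05.

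Further genes of the epidermis were read in lists by function. In a list of 23 cornified envelope and barrier genes, 22 had a count and 7 were tested, of which 1 rose and 0 fell, with a median of -0.13. It was Cdsn, which encodes corneodesmosin, an adhesion protein of the cornified layer. Cdsn stood at 0.714, 0.582 and 1.30 CPM in wild type, against 2.76, 2.98 and 2.35 CPM in Hdac3 CKO. All 3 Hdac3 CKO libraries were higher, at 1.64 ± 0.32 with an adjusted p of 0.0445 by edgeR's quasi-likelihood test. When each library was left out in turn, that adjusted p ranged from 0.0401 to 0.167, and Cdsn passed in 1 of 6 such fits. With every library kept, Cdsn also missed the threshold with library totals (adjusted p = 0.0757) and a mean count of at least 50 (0.065), both in edgeR, and in limma on log2 RPKM (0.0711 and 0.058 with 0.1 or 1 added). It passed in 5 of 15 alternatives in all. Asprv1, a protease that processes filaggrin, stood at -1.50 ± 0.38 with an adjusted p of 0.105.

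Of 23 genes of the basal layer and basement membrane found in the table, 20 were tested, 0 rose and 0 fell, with a median of 0.09. Those with the smallest p were the epithelial transcription factor Ehf at -1.62 ± 0.56 and the anchoring fibril collagen Col7a1 at 0.44 ± 0.17. Of 10 desmosome and junction genes shared with other tissues, 0 rose and 0 fell, with Cdh3 (P-cadherin) at -1.31 ± 0.30, Jup (plakoglobin) at 0.68 ± 0.17 and a median of 0.04. In the hair follicle list 13 of 14 genes had a count and 4 were tested, of which 0 rose and 0 fell, with a median of -0.53. Edar, the ectodysplasin receptor, stood there at -1.04 ± 0.40 and Krt75, a follicle keratin, at -0.62 ± 0.53. The table named 51 keratin genes by symbol, of which 48 had a count and 15 were tested, with 0 risen, 0 fallen and a median of 0.51.

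Markers of other cells were read beside these values, since bulk RNA cannot tell fewer cells of a type from less RNA per cell. The summed level of the 34 genes was 73.3, 46.4 and 46.0 CPM in wild type and 59.0, 93.7 and 78.3 CPM in Hdac3 CKO, so wild type replicate 1 and Hdac3 CKO replicate 2 were highest in their genotypes. Of the 9 genes of dermal and loose connective tissue fibroblasts, all tested, 0 rose and 2 fell, Dpp4 at -2.08 ± 0.23 and Pi16 at -1.25 ± 0.19. Their summed level was 1662, 1567 and 1410 CPM in wild type and 1184, 2128 and 1434 CPM in Hdac3 CKO, with the same libraries highest. In 10 of the 25 tested genes of the set, wild type replicate 1 was the highest of its genotype and Hdac3 CKO replicate 2 the highest of its own. Over all tested genes 16.2% had this order. The order was chosen from the libraries in which most genes of the set peaked, so its excess in the set was built in. The fibroblast list had this order in 5 of 9 genes, and the basal layer and basement membrane list in 8 of 20 tested genes. Cornified envelope and barrier genes had it in 0 of 7 tested, hair follicle genes in 0 of 4. The list of plasma and secretory epithelium had it in 2 of 5 tested genes, Elf5 and Muc1. That of mesothelium, notochord and simple epithelium had it in 0 of 4. Shared junction genes had it in 0 of 10, and Langerhans and Merkel genes in 0 of 2. Of 6 tested melanocyte genes, 0 rose or fell and 2 had this order, Kit and Pmel. Kit, at -0.33, and Sox10, at 0.55, had the smallest p there. The melanocyte list summed to 38.4, 36.7 and 30.1 CPM in wild type and to 30.7, 35.0 and 35.2 CPM in Hdac3 CKO. Replicates 2 and 3 of Hdac3 CKO were thus nearly level, but Kit, Mitf and Sox10 were the highest genes of that list in every library. Sox10 was lowest in Hdac3 CKO replicate 2. Pmel stood at 3.06, 1.92 and 1.49 CPM in wild type, against 1.89, 2.75 and 2.07 CPM in Hdac3 CKO. Tyrp1, too low to test, had the same order. Dct and Tyr were highest of wild type in replicate 1, but in Hdac3 CKO Dct peaked in replicate 1 and Tyr in replicate 3. Mlana had 4 counts in all. The part of skin carried over with the bone in the levels given here was not tested.

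Markers of other cells of the limb were read in the same way. The skeletal muscle list summed to 27255 to 33229 CPM in wild type, against 30360 to 50702 CPM in Hdac3 CKO, highest in Hdac3 CKO replicate 1, and 0 of its 8 genes rose or fell, with Des at 0.53 and Actn2 at 0.42. The order described above was found in 1 of these 8 genes, Myh3, an embryonic myosin, and in 0 of the 6 erythroid, 5 osteoblast and 5 cartilage genes tested. Of 6 erythroid genes 2 fell, Alas2 at -1.01 and Hbb-bs at -1.07. With 1 library left out, Dpp4 fell in 6 of 6 such fits, Pi16 in 3, Hbb-bs in 1 and Alas2 in 0. Among osteoblast and cartilage genes, 5 of each tested, 0 rose or fell, with Ibsp at 1.21, Col1a1 at 0.75, Acan at 0.92 and Sox9 at -0.41. In every library the summed muscle, osteoblast and cartilage lists, the lowest at 679 CPM, lay above the summed 34 genes.

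In 2 further lists of epithelial genes, Msln and Cldn7 rose. Genes outside the lists were not searched for other epithelial genes that rose. Msln, a surface protein of mesothelium, was the gene that rose among 4 tested in the list of mesothelium, notochord and simple epithelium, which holds Krt8 and Krt18 as well. Msln stood at 0.977, 1.36 and 1.10 CPM in wild type, against 3.56, 3.22 and 3.70 CPM in Hdac3 CKO, a log2 fold change of 1.61 ± 0.23, adjusted p = 0.0179 by edgeR's quasi-likelihood test. The other mesothelial markers of that list, Upk3b and Wt1, were too low to test. Cldn7, a tight junction claudin, was the gene that rose among 5 tested in the list of plasma and secretory epithelium, in which Ltf, which neutrophils also make, stood at -2.52. Its levels were 0.601, 0.446 and 0.366 CPM in wild type, against 2.69, 1.64 and 2.60 CPM in Hdac3 CKO, a log2 fold change of 2.28 ± 0.33, adjusted p = 0.0173 in the same test. With 1 library left out the adjusted p ranged from 0.0184 to 0.0684 for Cldn7 and from 0.0285 to 0.0793 for Msln by edgeR's quasi-likelihood test, each passing in 2 of 6 such fits.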

How the data were processed

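Gene expression was measured by RNA-seq in limb bone of 3 wild type and 3 Hdac3 CKO samples. The deposited values are unscaled read counts for each gene, which the authors made per the submitters' processing notes with bcl2fastq 1.8.4, TopHat2 2.1.0, Subread and featureCounts on mm10; the sources used here do not say which annotation release was counted, whether strand was used, or how multiply matching reads were handled. They also deposited RPKM values, which in the files equal the counts scaled by gene length plus 1 base and by a library total of which 72.1% to 87.0% lay in genes. Counts were filtered and TMM-scaled in edgeR 4.0.16 (R 4.3.3), and the genotypes were compared by the quasi-likelihood test with robust moderation, 4 residual degrees of freedom and Benjamini-Hochberg adjustment. The standard error is the log2 fold change over the square root of F. Alternatives were DESeq2 1.42.0, limma 3.58.1 on log2(RPKM + 0.1) and log2(RPKM + 1), other scalings, filters and moderation, and leaving out libraries. The procedure was also run on simulated counts drawn with dispersions estimated from these libraries, so that run does not check the dispersions themselves.

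Replicates were numbered within genotypes in record order. The genes, lists, roles and tests were chosen with earlier results of these data known. Values in every library were given for genes that were called or whose genotypes did not overlap, for Krt5 and Krt14, and for the highest genes of each role; of each further list the 2 genes with the smallest p and any called gene were named. Other genes were named after their values were seen. Promoter windows are RefSeq's, matched by symbol. Those of Krt7, Krt14, Lgals7 and Sbsn, and a further window of Dmkn, lie inside the deposited gene. Of these, only the Sbsn window is shown. Overlaps with other genes were read from GENCODE M21, which held 33 of the 34 genes, all but Flg. Of these, 8 shared exon bases with another gene.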

Additional observations from a re-analysis of the deposited data

How the results depend on the processing

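In the alternatives that tested them, up to 15 for a gene, 16 of the 25 tested genes kept the sign of their log2 fold change. The median of the tested genes ranged from 0.112 with limma on log2(RPKM + 1) to 0.589 without wild type replicate 1. The number of tested epidermal genes that rose was 0 except for 2 in DESeq2 (Krt15 and Trp63) and 0 to 1 when a library was left out (Krt15 without Hdac3 CKO replicate 1); the number that fell was 0 throughout. With no filter all 34 genes were tested and 0 were called. Over all genes, 238 were called, against 868 in DESeq2, 131 in limma on log2(RPKM + 1), 23 to 175 with 1 library left out, and 24 without wild type replicate 1 and Hdac3 CKO replicate 2, a pair chosen after seeing the data. Scaling by library totals moved the median of all tested genes to -0.184, and 32.6% of the calls were then higher, in place of 59.7%; limma on log2 RPKM gave 36.9% and 36.6% with pseudocounts of 0.1 and 1, and medians of -0.117 and -0.062.

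Signs changed as follows, and the cause was not tested beyond the library left out. With 1 library left out the log2 fold change ranged from -1.17 to 0.41 for Lor, -0.94 to 0.45 for Krtdap, -0.24 to 1.74 for Krt1, -1.07 to 0.17 for Krt79, -0.25 to 1.46 for Calml3, -0.40 to 0.18 for Dsc3, -0.44 to 0.093 for Pkp1, -0.029 to 0.75 for Cdh1 and -0.21 to 0.32 for Epcam. Without wild type replicate 1 and Hdac3 CKO replicate 2, Lor stood at 0.38, Krtdap at 0.40 and Dsc3 at 0.05, while Epcam at 0.484 and Krt79 at -1.10 kept their sign. Epcam stood at -0.13 with library totals and at -0.025 and -0.006 with limma on log2 RPKM with pseudocounts of 0.1 and 1. No paired analysis was possible because the labels give the genotypes no shared replicate numbers. Depth limits the 9 untested genes, of which none exceeded 49 counts in a library.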

Other observations

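Keratins of the inner root sheath of the hair follicle had few counts, and they were not spread evenly over the libraries. Krt25 had 14 counts in wild type replicate 2, 9 in Hdac3 CKO replicate 2 and 0 in the other 4 libraries. Krt73 had 19 counts in wild type replicate 2, 9 in Hdac3 CKO replicate 2, 1 in wild type replicate 1 and 0 elsewhere, and Krt27 had 3 and 5 counts in the same pair and 0 elsewhere. Other keratins of this sheath differed from that pattern. Krt71 had 14 counts in Hdac3 CKO replicate 2, 2 in Hdac3 CKO replicate 1 and 0 in every other library. Krt28 had 2, 3 and 5 counts in wild type and 6, 4 and 2 in Hdac3 CKO. Krt26 had 1, 3 and 0 counts in wild type and 0, 2 and 2 in Hdac3 CKO, Krt74 had 2 counts in Hdac3 CKO replicate 2 alone, and Krt72 had 0 throughout. None of these genes passed the filter on low counts, and they were chosen after their values were seen.

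Cd207, which encodes langerin of epidermal Langerhans cells, had 0, 0 and 4 counts in wild type and 6, 6 and 4 in Hdac3 CKO. Atoh1, a factor of Merkel cells, had 0 counts in every library. Krt20, a keratin of Merkel cells and simple epithelia, had 8, 6 and 2 counts in wild type and 17, 22 and 3 in Hdac3 CKO. Isl1, a transcription factor of Merkel cells and of developing limb, stood at -1.39 ± 0.69 (adjusted p = 0.38 by edgeR's quasi-likelihood test).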
